A study of Caenorhabditis elegans with 2 samples.

Results

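Small nucleolar RNA (snoRNA) genes are described here as regions with or without a peak in chromatin immunoprecipitation sequencing (ChIP-seq) of the tagged protein F44E2.7 in Caenorhabditis elegans. All 346 genes of biotype snoRNA on the nuclear chromosomes of the Ensembl annotation were taken, out of 46890 annotated nuclear genes of every biotype. Each gene was assigned the peak of highest signal whose summit lay within 200 bp of its span. By this rule 51 snoRNA genes (14.7%, exact 95% interval 11.2 to 18.9%) had a summit in the thresholded list made from both replicates, against 2.49% of all nuclear genes. The 51 genes used 50 of the 896 peaks of that list (5.58%), because C51F7.3 and C51F7.4 share a peak.

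The single group consisted of whole L4 larvae, 48 hours old, of strain OP381, in 2 biological replicates. The strain carries the transgene wgIs381, a fusion of F44E2.7 with TY1, EGFP and 3xFLAG together with unc-119(+), in an unc-119(tm4063) background. Worms had been synchronised by bleaching and starvation at the first larval stage. The samples' description speaks of anti-GFP, their antibody field of F44E2.7, and an untagged strain was not analysed here, so signal that does not come from the tagged protein could not be measured. RefSeq calls F44E2.7 a putative zinc finger protein. There was no second condition, so the comparisons below are between classes of snoRNA gene and between these genes and other genes. Genes of the same libraries are not replicates, and no difference between classes was tested. Every interval is an exact Clopper-Pearson 95% interval and covers counting error over genes alone.

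snoRNAs are short nuclear RNAs that guide chemical modification of ribosomal and spliceosomal RNA. C/D box snoRNAs guide 2′-O-methylation with fibrillarin, and the generally longer H/ACA box snoRNAs guide pseudouridylation with dyskerin. In animals many are cut out of the introns of host genes and others are transcribed from promoters of their own. Genes read by RNA polymerase III often end in a run of T residues, and tRNA genes carry an A box and a B box that bind the factor TFIIIC. Small nuclear RNA (snRNA) genes have instead a proximal sequence element, bound by the snRNA-activating complex.

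The stretches upstream of some of the strongest snoRNA genes are printed first, because the summits fall on all but 1 of them. The exception is Y75B12B.12, whose summit lies inside the gene at 52 bases after its 5′ end. Y23H5B.10 and ZK265.10 also rank among the strongest but are not printed, and they have no ordered pair of the box words below, so the lines shown hold pairs more often than the top of the list does. Each line holds 90 bases upstream and the first 12 bases of the gene, from the RefSeq genome of WBcel235, which equals ce11, on the gene's own strand. Capitals mark every match to an A box word (TNGCNNAG), a B box word (GTTCNANNC) or the word TGTCGG on that strand. The first 4, grouped for that reason and not by signal, have an A box word followed by a B box word. They lie at chrII:11960808-11960909 (plus strand), chrV:11314168-11314269 (plus), chrV:19643176-19643277 (minus) and chrV:11782902-11783003 (plus).

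W03C9.9: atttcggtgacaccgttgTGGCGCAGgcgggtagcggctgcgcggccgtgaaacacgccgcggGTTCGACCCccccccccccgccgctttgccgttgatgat
T03F7.8: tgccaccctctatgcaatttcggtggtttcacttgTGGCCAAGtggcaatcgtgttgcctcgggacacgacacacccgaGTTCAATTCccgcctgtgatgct
Y43F8C.22: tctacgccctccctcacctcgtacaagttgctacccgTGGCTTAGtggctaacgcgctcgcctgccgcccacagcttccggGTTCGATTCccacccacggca
F55A11.10: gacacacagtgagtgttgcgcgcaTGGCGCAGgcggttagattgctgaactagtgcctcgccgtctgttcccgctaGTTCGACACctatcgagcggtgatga

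The next 2 have a match to one of the box words, at chrV:15873915-15874016 (minus) and chrV:15191082-15191183 (minus). C27H6.5, at chrV:9970260-9970361 (minus), has none.

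T06C12.16: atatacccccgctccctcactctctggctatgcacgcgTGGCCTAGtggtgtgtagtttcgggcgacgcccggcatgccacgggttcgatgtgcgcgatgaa
Y75B12B.12: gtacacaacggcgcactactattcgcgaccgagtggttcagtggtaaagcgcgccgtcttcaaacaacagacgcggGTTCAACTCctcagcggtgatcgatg
C27H6.5: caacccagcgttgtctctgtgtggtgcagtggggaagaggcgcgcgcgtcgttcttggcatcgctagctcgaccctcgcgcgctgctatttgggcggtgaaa

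The 2 strongest peaks of the whole thresholded list lay at ZK994.7, at chrV:8500489-8500590 (plus), and at the pair C51F7.3 and C51F7.4. The stretch before C51F7.3, at chrV:12303618-12303719 (plus), runs through C51F7.4, which ends 14 bases before C51F7.3 begins. It has 2 B box words that lie inside C51F7.4, and its A box word comes after them.

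ZK994.7: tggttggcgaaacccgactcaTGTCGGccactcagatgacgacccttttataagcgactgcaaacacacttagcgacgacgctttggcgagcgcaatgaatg
C51F7.3: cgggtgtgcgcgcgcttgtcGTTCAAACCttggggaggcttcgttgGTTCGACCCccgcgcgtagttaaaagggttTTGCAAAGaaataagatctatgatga

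Values of single peaks follow, first for the genes of highest signal. Signal is the authors' value per peak on a scale that the sources used here do not give, and it ranks peaks within a list only. No file gives read counts, so depth is unknown. ZK994.7, a gene of 67 bases on chromosome V (8500579 to 8500645), had the highest signal of all 896 peaks, 413. In the replicates' thresholded lists its signal was 166 for replicate 1, where it ranked 1, and 236 for replicate 2, where it ranked 2. In the ranked lists, which hold peaks before any threshold, it ranked 12 for both replicates together, 13 for replicate 1 and 14 for replicate 2. The summit lay 8 bases upstream of the gene's 5′ end, within an intron of 341 bp of pxn-1, which encodes a peroxidasin.

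The peak shared by C51F7.3 and C51F7.4 had a signal of 411, with 162 for replicate 1 and 252 for replicate 2. Its summit was 60 bases upstream of C51F7.3 and 49 bases inside C51F7.4. Both genes lie on the strand of frm-7. C51F7.3 and the summit lie in an intron of 267 bp. C51F7.4 lies in the same intron except for its first base, which overlaps an exon. C51F7.3 is 76 bases long and carries the words of box C (TGATGA) and box D (CTGA), in capitals below (chrV:12303708-12303783, plus strand).

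C51F7.3 gene: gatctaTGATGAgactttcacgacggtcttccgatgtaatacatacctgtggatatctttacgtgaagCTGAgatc

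Among intergenic genes the highest signals belonged to Y23H5B.10 and W03C9.9. Y23H5B.10, on chromosome I, had 282, with 89.9 for replicate 1 and 189 for replicate 2. W03C9.9, a second gene with the box C and box D words, had 275, with 127 in replicate 1 and 151 in replicate 2. T03F7.8, opposite to its host cutl-18, followed with 259, and its replicate values were 107 and 151. ZK265.10, which also lies on chromosome I, T06C12.16 and Y43F8C.22 had signals of 230, 230 and 222. All of these peaks were in the lists of both replicates.

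Peaks near snoRNA genes were frequent among the highest signals of the thresholded list. They made up 12 of its first 25 peaks, 20 of the first 50 and 26 of the first 100, beside 50 of all 896. These counts hold for that list only. The ranked list of both replicates had stronger peaks that were not thresholded, up to a signal of 3800. There Y23H5B.10, at rank 7 of the thresholded list, ranked 24, and F55A11.10, at rank 22, ranked 49. The 25 snoRNA genes of highest signal ran down to C41C4.11 at 152 and were all in both replicates' lists. C27H6.5 in unc-41, Y75B12B.12, F55A11.10, F32E10.10, T19B4.8, F38E11.14 in cng-3, ZK484.9 in haf-9 and C10C6.8 in catp-8 lay between 183 and 206. B0334.12, H09I01.2, T27A3.9, D1046.6, C27H5.9, F11A10.9 and C05D2.15 completed the 25, from 154 to 176.

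Of the 51 genes, 27 had a summit in the lists of both replicates, 3 in that of replicate 1 alone, 12 in that of replicate 2 alone and 9 in neither. Signal in the list of both replicates was 106 to 413 (median 185) for the first of these groups and 55.7 to 96.6 (median 85.1) for the last. Replicate 1's list held 178 peaks and replicate 2's held 319, and a summit was near 31 (8.96%) and 39 (11.3%) snoRNA genes in them. The corresponding shares of all nuclear genes were 0.589% and 1.06%. In the conservative list the share was 54 of 346 (15.6%), against 2.38% of all nuclear genes. Of the 50 thresholded peaks near snoRNA genes, 49 had a counterpart in both replicates' ranked lists. Across these 49 the signals of both were correlated (Spearman's rho 0.812, Pearson's r 0.882, a description over peaks of the same libraries). The threshold favours peaks that rank high in both replicates, so the correlation does not measure agreement over snoRNA genes at large.

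**Figure D1:**
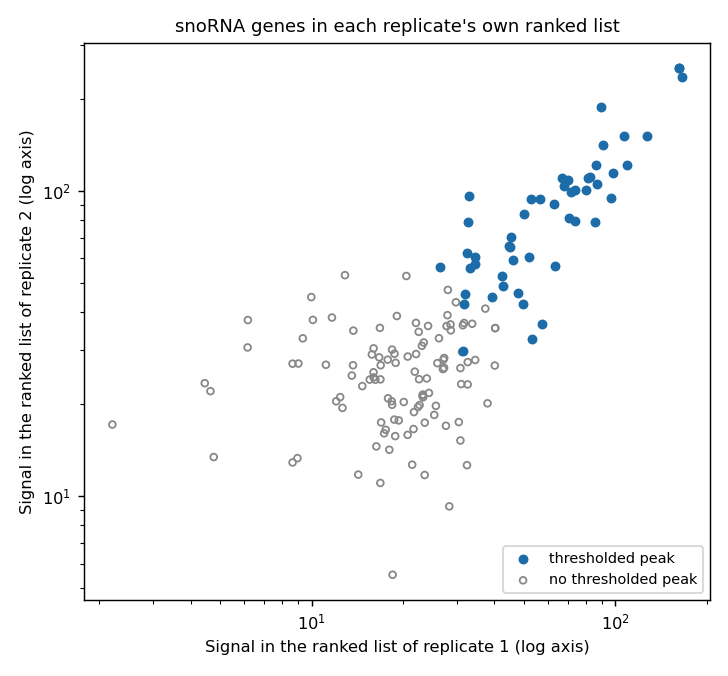
Signal of the highest peak within 200 bp of each snoRNA gene in the ranked list of replicate 1 (horizontal, log axis) and of replicate 2 (vertical, log axis), on the authors' scale. Filled points are the 50 genes with a thresholded peak and a ranked peak in both replicates, open points are the 109 without a thresholded peak, and the filled points lie at the upper right.

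Summits lay mostly just upstream of the snoRNA genes. Of the 51, 42 were upstream of the 5′ end, 6 inside the gene and 3 downstream, with quartiles at -55.5 and -6.5 bases, where 0 is the first base of the gene. They crowded within 70 bases: 38 fell between -70 and 0. In the thresholded list 98.0% of summits sit 135 bases into a peak of 270 bp, its midpoint, so most positions are peak centres. Peaks at some of the strongest snoRNA genes were narrower, among them ZK994.7, C51F7.3, Y23H5B.10, W03C9.9, T03F7.8, ZK265.10 and F55A11.10. Their summits need not be centres: that of F55A11.10 was at base 11782946 in a peak from 11782926 to 11783009. One gene had its summit more than 100 bp away, M7.15 at 154 bp. The nearest genes outside the limit were Y43B11AR.7 at 203 bp, C24A1.8 at 207 bp, F28C6.11 at 213 bp and C16D9.11 at 232 bp, while the next inside it were F59C6.15 at 100 bp and B0334.12 at 90 bp.

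**Figure D2:**
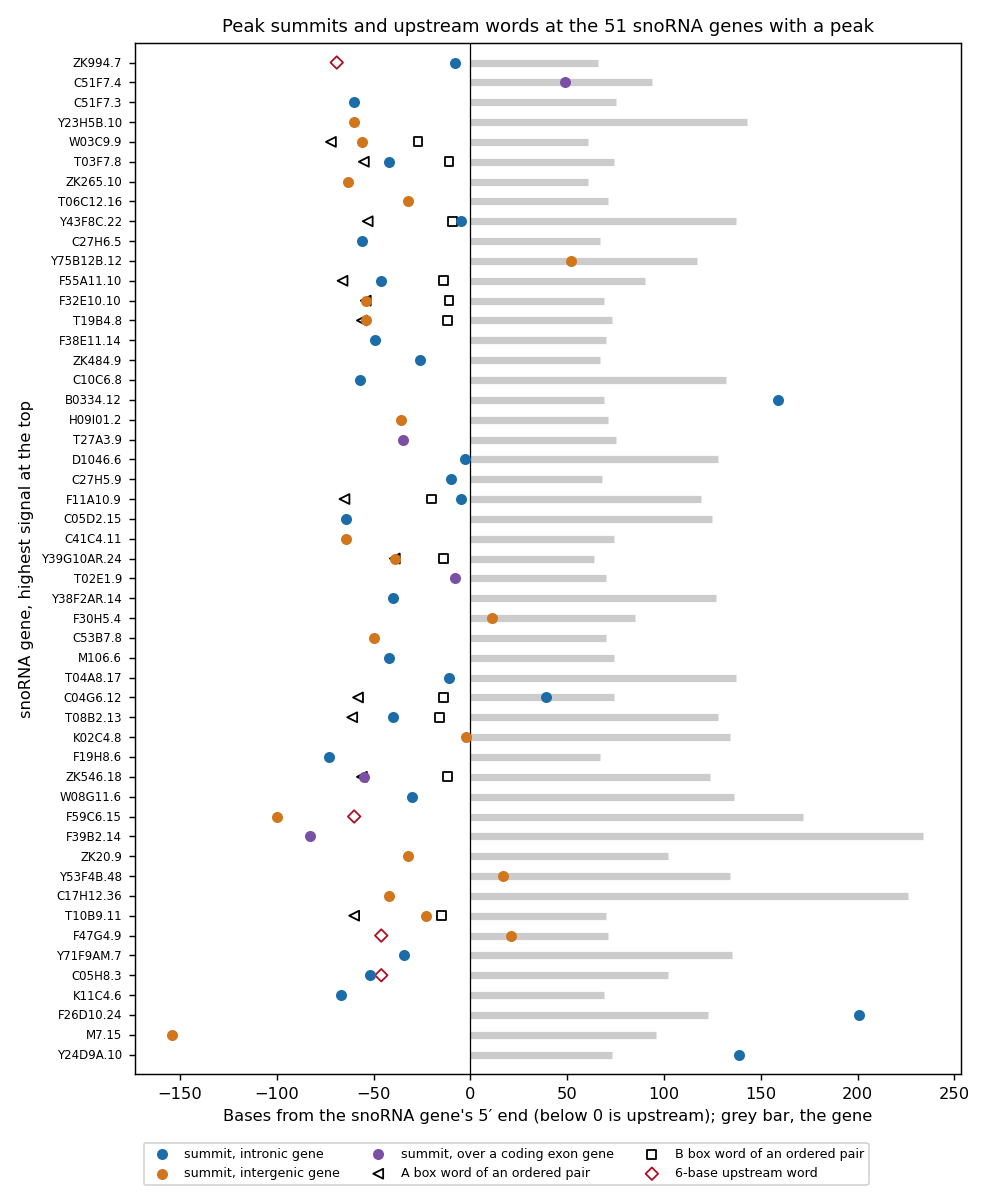
Position of the peak summit (filled points, coloured by where the gene lies) from the 5′ end of each of the 51 snoRNA genes, in bases, with the genes in order of signal. Open triangles and squares are the A box and B box words of the 12 genes with an ordered pair, open diamonds the 6-base word found at 4 genes, and grey bars the genes; 42 of the summits are left of the line at 0.

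The next comparison was between genes inside and outside host genes. A gene was called exonic if it overlaps an exon of a protein-coding gene, intronic if it otherwise lies wholly in an intron of another gene, and intergenic if neither holds. A summit was found at 26 of 171 intronic genes (15.2%, interval 10.2 to 21.5%) and 20 of 122 intergenic genes (16.4%, 10.3 to 24.2%). Over all genes the intervals overlap over most of their length. Among genes under 100 bases the shares were further apart, at 26.4% of intronic genes (15.3 to 40.3%) and 44.8% of intergenic genes (26.4 to 64.3%). Among genes with a WormBase identifier number up to 200000 they were 25% (16.9 to 34.7%) and 53.1% (34.7 to 70.9%); both splits were chosen after the data had been seen. At the 53 exonic genes there were 5 (9.43%, 3.13 to 20.7%). Among these is C51F7.4, which overlaps the exon by its first base only and whose summit lies in the intron. The replicates gave 9.94% of intronic and 9.02% of intergenic genes for replicate 1, and 11.7% and 11.5% for replicate 2. Median signal was 156 at the 26 intronic genes and 127 at the 20 intergenic genes, with ranges of 55.7 to 413 and 68.1 to 282. The median summit position was -37.0 bases at intronic and -40.5 bases at intergenic genes.

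Introns without a snoRNA gene were counted in the same hosts. Of 168 introns that hold an intronic snoRNA gene, 25 had a summit inside (14.9%, 9.87 to 21.2%). Of 1183 other introns of the same 151 host genes, 4 did (0.338%, 0.0922 to 0.863%). Those other introns were shorter, with medians of 464 bp for the introns with a snoRNA gene and 118 bp for the others. Among introns of 300 bp or longer, 13 of 104 with a snoRNA gene (12.5%) and 3 of 426 others (0.704%) had a summit. In both replicates' own lists the gap had the same direction, at 10.1% and 0.0845% in replicate 1 and 11.9% and 0.254% in replicate 2.

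Few of these summits were at the start of the host. A window from 1000 bp upstream to 200 bp downstream of a host start held the summit for 4 of the 31 hosted genes, namely F55A11.10, D1046.6, F39B2.14 and Y71F9AM.7. Hosted genes lie in an intron or over an exon of the host by definition. The part of the window before the host's first start was therefore hardly open to their summits, and the low count partly follows from this. Over all protein-coding genes, 1.71% had a summit in such a window. That share covers genes with and without any summit, while the 31 were taken for having one, so it is no background for them. The median distance from the nearest host start was 1160 bp, and for 12 of the 31 genes it was 1000 bp or less, such as C27H5.9 at 287 bp and B0334.12 at 458 bp. The farthest were M106.6, 16029 bp after the nearest start of mix-1, a condensin subunit gene, and K11C4.6, 7031 bp after the nearest start of unc-70, which encodes beta-spectrin.

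Strand relative to the host was compared for the intronic genes. A summit was found at 19 of 142 genes on the host's strand (13.4%, 8.25 to 20.1%) and at 7 of 28 opposite to their host (25%, 10.7 to 44.9%). The intervals overlap. In replicate 1 the shares were 7.75% on the host's strand and 21.4% opposite, and in replicate 2 they were 10.6% and 17.9%. Exonic genes gave 2 of 41 on the same strand and 3 of 12 opposite. The 7 intronic genes opposite to their host were T03F7.8 in cutl-18, ZK484.9 in haf-9, B0334.12 in twk-5, C27H5.9 in pdl-1, T04A8.17 in ppat-1, C04G6.12 in mpk-2 and C05H8.3 in ckk-1. Median signal was 154 for the 19 on the host's strand and 161 for these 7, which ran from 76.9 to 259. One gene with hosts on both strands had no summit.

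Intron size differed with the presence of a summit. On the host strand, the intron had a median of 270 bp for genes with a summit and 462 bp for genes without. For genes opposite to the host the medians were 322 bp and 1240 bp. Upstream of the gene, 143 intron bases lay before genes with a summit on the host strand and 129 before those without (medians). For genes opposite to the host the medians ran the other way, at 197 and 643 bases.

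Host gene type came next. In vertebrates and many other animals, ribosomal protein and translation factor genes are common snoRNA hosts. Of the 19 snoRNA genes inside ribosomal protein genes, 1 had a summit (5.26%, 0.133 to 26%), and none of the 19 had one in either replicate's list (0%, 0 to 17.6%). It was Y24D9A.10 in rpl-7A, with the lowest signal of the 51, 55.7, and a summit 139 bases after its 5′ end, beyond the gene. Of 2 genes in chaperone genes, F26D10.24 in hsp-1, an Hsc70 gene, had a summit with a signal of 72.6, likewise beyond the gene at 201 bases. Neither summit was upstream of its snoRNA gene. The 5 genes in or over translation factor genes and the 2 in the splicing factor gene prp-8 had none. Intronic genes in all other hosts had a summit in 24 of 145 cases (16.6%, 10.9 to 23.6%), with a median position of -40. In the conservative list the counts were 2 of 19 in ribosomal protein genes (10.5%, 1.3 to 33.1%) and 24 of 145 in the other hosts (16.6%).

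All 19 genes in ribosomal protein hosts lie on the host's strand. Their ranked-list signals, where present, had a median of 44.1, against 40.3 for intronic genes in other hosts. These medians have no interval and rest on the 16 of 19 and 106 of 145 genes with a ranked peak. In the counts of summits the ribosomal protein class rests on 19 genes, and its interval includes the share of the other hosts.

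**Figure D3:**
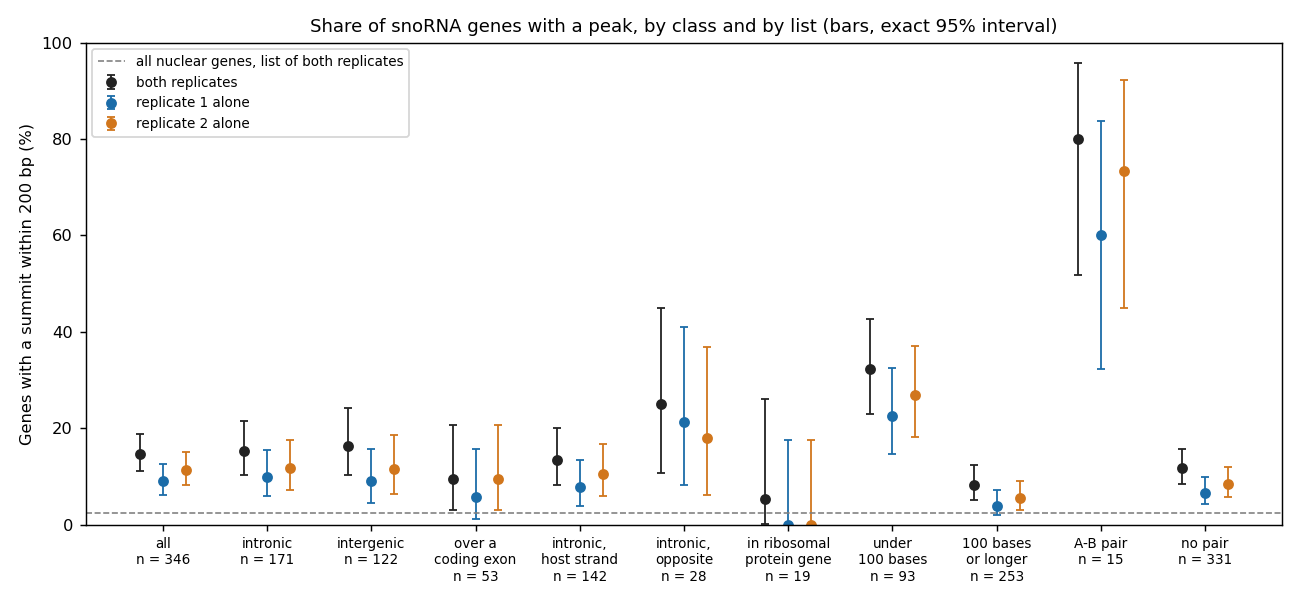
Percentage of snoRNA genes with a summit within 200 bp, by class, in the list of both replicates (black), of replicate 1 (blue) and of replicate 2 (orange), with exact 95% intervals. The dashed line is the 2.49% of all nuclear genes; intronic and intergenic genes stand at 15.2 and 16.4%, while genes with the A-B pair are at 80.0%.

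Shares differed by gene length, with intervals that do not overlap. A summit was found at 30 of 93 snoRNA genes under 100 bases (32.3%, 22.9 to 42.7%) and at 21 of 253 of 100 bases or longer (8.3%, 5.21 to 12.4%). The same order held in replicate 1, with 22.6% and 3.95%, and in replicate 2, with 26.9% and 5.53%. Median length was 76 bases with a summit and 132 without. The limit of 100 bases was set after these lengths had been seen. Intronic genes gave 14 of 53 short and 12 of 118 long, and intergenic genes 13 of 29 short and 7 of 93 long. Signal was higher too, with a median of 174 at the short genes and 96.6 at the long ones. Length as a guide to the family is rough: box C and box D words were found together in 15 of the 346 genes, of which 4 had a summit, and an ACA word near the 3′ end in 58 others, of which 13 had one.

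Among other annotated genes of 54 to 344 bases, the length range of the snoRNA genes, 5.82% had a summit. In that range were 250 of 612 tRNA genes with a summit and 14 of 128 snRNA genes. None of the 51 snoRNA genes with a summit has an annotated tRNA or snRNA gene within 500 bp, and of the 4 snoRNA genes that do, 0 had a summit. A tRNA pseudogene overlaps 4 snoRNA genes, and D1046.6, T08B2.13 and F19H8.6 of these had a summit, at signals of 96.2 to 167. A noncoding RNA gene on the opposite strand overlaps 31 snoRNA genes, of which 13 had a summit (41.9%, 24.5 to 60.9%), against 38 of 315 without such a gene (12.1%, 8.68 to 16.2%).

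Box words upstream were then counted, in the 100 bases before each gene on both strands. An A box word was present at 25 of the 51 genes with a summit (49.0%) and 39 of the 295 without (13.2%), against 6.92% of all nuclear genes. A B box word was present at 21 (41.2%) and 14 (4.75%), against 2.63% of all nuclear genes. The TATA word TATAA was present at 11 (21.6%, 11.3 to 35.3%) and 54 (18.3%, 14.1 to 23.2%), against 29.3% of all nuclear genes. The interval of the genes with a summit includes that share, and that of the genes without lies below it. The B and A words do not overlap in their letters when they form the pair described next. Upstream G and C content had a median of 56% at genes with a summit and 42.0% at genes without. It also differed by the words, with medians of 51% at the 83 genes with an A or B box word and 42.0% at the 263 genes with neither. Among those 263, it was 55.0% at the 19 with a summit and 41.0% at the others, and its part in the counts was not tested.

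The words also had an order. An ordered pair was defined, after the words had been seen, as an A box word and a B box word on the gene's strand, the second starting 20 to 90 bases after the first, between 120 bases upstream and 20 bases inside the gene. Such a pair was present at 15 snoRNA genes, and 12 of these had a summit (80.0%, 51.9 to 95.7%), against 39 of 331 without a pair (11.8%, 8.51 to 15.8%). Replicate 1 gave 9 of 15 and 22 of 331, and replicate 2 gave 11 of 15 and 28 of 331. Over all nuclear genes the pair is rare, at 0.0853%, and it was found before 3 of 19973 protein-coding genes and none of 129 snRNA genes. Of the 12 pairs with a summit, 6 were at intronic genes, 5 at intergenic genes and 1 at an exonic gene.

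In those 12 genes the A box word began 39 to 72 bases upstream (median -57.0) and the B box word 9 to 27 bases upstream (median -14.0), with 25 to 52 bases between their starts. The summit lay between the starts of both words in 9 of the 12. This count includes F32E10.10 and Y39G10AR.24, whose summits fell on the first base of the A box word. Outside it were Y43F8C.22 and F11A10.9, each with its summit at -5, and C04G6.12 at 39. Several of the 9 summits, such as those of F32E10.10, T19B4.8 and Y39G10AR.24, are midpoints of 270 bp peaks, so their place between the words is rough. Signals of the 12 genes ran from 85.1 at T10B9.11 to 275 at W03C9.9, with a median of 172.

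The 3 genes with a pair and no thresholded summit were T24H7.6, R166.7 and Y59E1B.14. T24H7.6 had a peak of 65.6 in the ranked list and was in the conservative list. R166.7 had a ranked signal of 52.7, and Y59E1B.14 had no ranked peak within 200 bp. A looser pair, TGGCNNA followed by GTTCNA, was present at 30 genes, of which 18 had a summit (60.0%, 40.6 to 77.3%), against 0.358% of all nuclear genes with that pair. Any A or B word, or the looser pair, accounted for 35 of the 51 genes with a summit and 56 of the 295 without. The other 16 include Y23H5B.10, C27H6.5 and ZK265.10, of which Y23H5B.10 has a B box word on its strand in the wider window of the pair but none in the 100 bases upstream.

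The 3 commonest 6-base words before the genes with a summit, on their strand, were parts of the same boxes. GTTCGA was found at 17 of 51 genes with a summit and 7 of 295 without. GCGCAG was found at 15 and 7, and TGGCGC at 15 and 13.

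A run of 4 T residues in the 20 bases after the 3′ end was present at 40 of the 51 genes with a summit (78.4%, 64.7 to 88.7%) and 105 of the 295 without (35.6%, 30.1 to 41.3%), against 35.7% of all nuclear genes. The interval of the genes without a summit includes that share. Counted the other way, 40 of 145 genes with the run had a summit (27.6%) and 11 of 201 without it (5.47%). Within each length class the share was higher with the run: among genes under 100 bases, 25 of 52 with the run and 5 of 41 without it had a summit, and among longer genes 15 of 93 and 6 of 160. By identifier number this did not hold throughout. Up to 200000, 39 of 82 genes with the run and 6 of 59 without it had a summit. Above 200000 the order turned round, at 1 of 63 (1.59%, 0.0402 to 8.53%) and 5 of 142 (3.52%, 1.15 to 8.03%), with overlapping intervals.

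The word TGTCGG was counted as well. It was searched on the gene's strand within 120 bases upstream, a choice made after the data had been seen. It was present at 35 snoRNA genes, and 4 of these had a summit (11.4%, 3.2 to 26.7%), beside 15.1% of the 311 genes without it. Its place was narrow, with 28 of the 35 between 62 and 43 bases upstream and 8 exactly at -47. The word also stood before 42 of 129 snRNA genes (32.6%), 39 of them in the same range with a median of -47, and before 1.38% of all nuclear genes. Of the 42 snRNA genes, 5 had a summit. Upstream stretches of C05H8.3, which had a signal of 76.9, and of T26A8.6 and W03B1.17, which had no thresholded summit, are shown for comparison with the box pairs above. They lie at chrIII:5653957-5654058 (minus), chrIV:8428728-8428829 (minus) and chrIV:4347542-4347643 (plus).

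C05H8.3: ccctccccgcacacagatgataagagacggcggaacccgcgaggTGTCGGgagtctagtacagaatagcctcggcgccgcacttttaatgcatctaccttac
T26A8.6: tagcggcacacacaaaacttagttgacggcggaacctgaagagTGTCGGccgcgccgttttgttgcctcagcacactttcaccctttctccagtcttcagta
W03B1.17: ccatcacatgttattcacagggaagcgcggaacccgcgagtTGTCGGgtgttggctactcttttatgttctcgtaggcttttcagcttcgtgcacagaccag

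The genes with a summit and this word were ZK994.7, with 413, and F59C6.15, F47G4.9 and C05H8.3, with 94.4, 80.6 and 76.9. ZK994.7 has the word at -69, outside the narrow range, and the other 3 have it between -60 and -46.

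**Figure D4:**
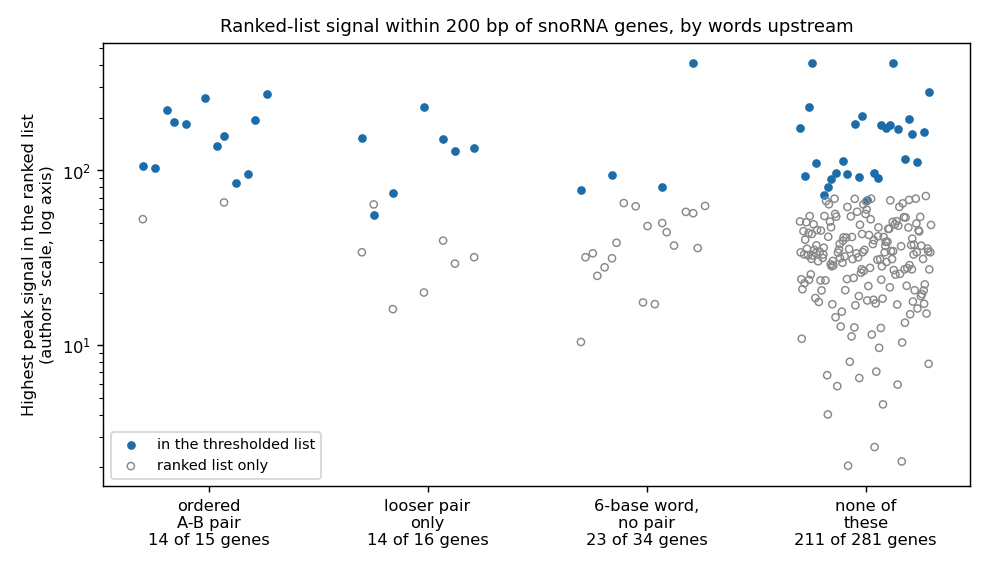
Highest signal within 200 bp of each snoRNA gene in the ranked list of both replicates (log axis, authors' scale), by the words upstream; filled points are genes in the thresholded list, open points genes in the ranked list alone. Medians are 148 with the ordered A-B pair, 59.9 with the looser pair alone, 44.3 with the 6-base word and 35.1 with none of these, over the genes with a ranked peak that the axis labels count.

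The ranked list, with 108809 peaks before any threshold, was used to see what lay below the thresholded list. A ranked summit was within 200 bp of 262 snoRNA genes (75.7%), against 55.0% of all nuclear genes. Of the 295 genes without a thresholded summit, 211 had a ranked peak, with a median signal of 33.6 and a highest of 71.4, and 84 had none. The highest of them was F07A11.15, over an exon of din-1 on the opposite strand, at 71.4 and rank 1043 of the ranked list. F54E7.10 and F54E7.11, both in rps-12, a ribosomal protein gene, share a ranked peak of 69.0. C46C2.8 and C14C10.8 followed with 69.0 and 68.8. F07A11.15 and the rps-12 pair were also in the conservative list, and none of the 5 genes was in either replicate's thresholded list.

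Genes that make or transcribe small RNAs were examined last, from a list by symbol. It covers 11 snoRNP genes such as fib-1 (fibrillarin), nol-56, nol-58 and dkc-1 (dyskerin), 11 RNA polymerase III and TFIII genes, and 7 snRNA-activating genes. With a summit from 1000 bp upstream to 200 bp downstream of a start there was 1 of 29, rpc-11, a polymerase III subunit gene, with a signal of 81.6 and no peak in either replicate's own list. Over all protein-coding genes the share was the 1.71% given above. The nol-56 gene hosts 4 snoRNA genes, K07C5.10, K07C5.11, K07C5.12 and K07C5.18, and none had a thresholded summit.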

How the data were processed

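Peak lists of ChIP-seq from 2 biological replicates of 1 group were used as deposited, on ce11 per the labels. Per the accompanying file notes, series lists derive from both replicates and sample lists from 1, and the thresholded lists derive from a further file that the ranked lists do not. Not given in the sources used here are the aligner, the peak caller, the settings and the use of a possible control. Deposited columns give the authors' score (capped at 1000), the authors' signal per peak and the authors' −log10 irreproducible discovery rate (IDR). All 896 thresholded peaks were in the ranked list, at a −log10 IDR of 2.0 or higher, and 91 ranked peaks at that level were not thresholded. How the replicates' worms were grown apart is not stated, so their spread may be technical.

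Genes and introns came from the Ensembl release 115 annotation of WBcel235, whose chromosome lengths fit the files. Shares have Clopper-Pearson intervals. Counting was tested on simulated data with planted summits. The members, lists and tests were chosen with earlier results of these data known. Named genes were the 25 snoRNA genes of highest signal, the 5 of highest ranked signal without a thresholded peak, members with a summit in ribosomal protein, translation or chaperone hosts and listed genes with a promoter summit. Sequences were those of up to 10 of the first 25 outside chromosome I. Other names, the ordered and looser pairs, TGTCGG, the length classes and the identifier split were chosen after seeing the data. Alternatives were other lists, distances, anchors, IDR levels and neighbours. Scripts ran in Python 3.11.15 with scipy 1.17.1, pandas 2.3.3, numpy 2.4.6 and matplotlib 3.10.9.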

Additional observations from a re-analysis of the deposited data

How the results depend on the processing

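No paired analysis was possible because the series has 1 group. Depth is unknown, so what it limits was not measured. Of 93 alternatives, 75 left a share within its interval, a median within 1 SD or a count within 1.5 times, and 18 did not; the causes were not tested. With 1 replicate's list in place of both, the share of genes with a summit was 8.96 to 11.3% of all snoRNA genes, 9.94 to 11.7% of intronic, 9.02 to 11.5% of intergenic, 7.75 to 10.6% of those on the host strand and 17.9 to 21.4% of those opposite to it. It was 60.0 to 73.3% with the ordered pair, 6.65 to 8.46% without it and 5.71% with TGTCGG in both lists. The share was 10.1 to 11.9% of introns with a snoRNA gene and 0.0845 to 0.254% of other introns. The median position was -40 and -31.0. The listed snoRNP, polymerase III and snRNA-activating genes gave 0 in both lists, against 1. An IDR of 0.001 gave 8.67% of all, 9.36% of intronic, 9.02% of intergenic and 7.75% of host-strand genes, 6.34% without the pair and 2.86% with TGTCGG. An IDR of 0.05 gave 21.7% of all, 27.0% of intergenic and 18.4% of genes without the pair. Intergenic genes that overlap no other gene gave 13.0%. The order of intronic and intergenic genes, 15.2 and 16.4%, turned round with either replicate's list alone (9.94 and 9.02%, 11.7 and 11.5%), at an IDR of 0.001 (9.36 and 9.02%), within 500 bp (20.5 and 18.9%) and with intergenic genes limited to those that overlap no other gene.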

Other observations

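Presence of a summit followed the gene's WormBase identifier, a split chosen after the data were seen. Of 141 snoRNA genes with an identifier number up to 200000, 45 had a summit (31.9%, exact 95% interval 24.3 to 40.3%), against 6 of 205 with a higher number (2.93%, 1.08 to 6.26%). The lists of the replicates gave 20.6% and 0.976% in replicate 1 and 26.2% and 0.976% in replicate 2. The split appears inside each position class. It was 25 of 100 and 1 of 71 among intronic genes, 17 of 32 and 3 of 90 among intergenic genes, and 3 of 9 and 2 of 44 among exonic genes. With the T run after the gene, 39 of 82 genes of lower number and 1 of 63 of higher number had a summit. Without the run the counts were 6 of 59 and 5 of 142. The exception in signal was C51F7.4, a gene of higher number that shares the peak of C51F7.3 at 411.

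By chromosome, a summit was found at 1 of 33 snoRNA genes on X, C53B7.8, with a signal of 113, and at 3.03 to 20% of the genes of each chromosome. Of the 33 genes on X, 3 have an identifier number up to 200000, beside 24 to 31 on each of the others, and C53B7.8 is 1 of the 3.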
